A study of Mus musculus with 6 samples.

Results

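Genes that mark the oligodendrocyte lineage at its precursor stage were followed, 7 in number: Pdgfra, Cspg4, Gpr17, Lhfpl3, Olig1, Olig2 and Sox10. They were chosen by gene symbol, and all 7 of 7 were found among the 12968 genes of the table. The study prepared ribosome-bound polyA RNA from the middle section of the left brain hemisphere of 6 mice by RiboTag immunoprecipitation, in which tagged Rpl22 protein, made where Cre recombinase is active, lets the ribosomes of those cells be pulled down. The middle cerebral artery was occluded for 1 h (MCAO) in 3 mice, and 3 control mice had no MCAO; all were killed after 3 days. No sham operation is described. Only the series title, which speaks of astrocytes, tells which cells carried the tag; a Cre driver, strain, age and sex are not in the labels. Each library is 1 animal, and its replicate number only names it.

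Oligodendrocyte precursor cells, also called NG2 glia, are dividing cells spread through grey and white matter that give rise to myelinating oligodendrocytes. Platelet-derived growth factor made by neurons and astrocytes acts on their PDGF receptor alpha and keeps them dividing, and the transcription factors OLIG1, OLIG2 and SOX10 run through the whole lineage. After brain injury these cells are known to divide and gather around the lesion. Some of the genes are not confined to them: Cspg4 is also made by pericytes, Pdgfra by fibroblasts of the vessel wall and meninges, and Olig1, Olig2 and Sox10 by mature oligodendrocytes.

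Recovered reads per library ran from 882263 in MCAO 2 to 9519548 in control 1. The shallowest library of each group was control 2 (1538901 reads) and MCAO 2. Values are scaled read counts, that is reads per gene divided by a scale factor of the library. Astrocyte markers were plentiful, with 11 of 11 listed genes tested and summed levels of 31376 to 50632 scaled reads in controls and 35015 to 46574 after MCAO, and their median log2 change was -0.15, with 5 positive and 6 negative. Limma called 1 of the 11, Gfap, the astrocyte filament gene, which rose by 3.45 on the log2 scale (SE 0.18, limma adjusted p = 1.93e-07). Gfap made up 523 to 649 scaled reads of the sums in controls and 5272 to 8028 after MCAO. The sums therefore do not describe the other astrocyte genes alone. Chosen after their values were seen, the glutamate transporter gene Slc1a3 (-0.69, adjusted p = 0.114) and the bicarbonate transporter gene Slc4a4 (-0.58, adjusted p = 0.114) were not called. Rpl22, which carries the tag, was at 197 ± 32.8 and 251 ± 52.1 scaled reads (SD, n = 3 each; limma adjusted p = 0.330). Markers of neurons, myelin, microglia and vessels were present in every library too, so the precipitates held RNA of many cell types, and whether the precursor transcripts came from tagged cells was not tested. In such bulk RNA, fewer or more cells of a type and less or more RNA per cell cannot be told apart.

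Of the 7 genes only Cspg4 passed the test. It was higher after MCAO, by 2.43 times in the ratio of means. Olig1, Sox10 and Olig2 had higher means after MCAO, by 59.4%, 51.1% and 46.7%, without passing, and Pdgfra, Gpr17 and Lhfpl3 had means within 6.10% of the control means. A call is a limma adjusted p under 0.05 over 12549 genes, and 3.08% of these were called in either direction and 2.3% as higher, against 1 of 7 here; edgeR on reads recovered from the values called 4.14% (3.06% as higher) and also 1 of the 7, Cspg4. No gene of the 7 was called lower (0 at an unadjusted p under 0.05 and 0 by edgeR). All 3 MCAO libraries lay above all 3 controls in Cspg4, Olig1 and Sox10, that is in 3 of 7 genes, where 12.4% of tested genes did so. These 3 genes and Olig2 had an unadjusted p under 0.05 with a higher level after MCAO, 4 of 7 against 10.1% of tested genes. The median log2 change was 0.58 over the 7 genes and -0.01 over all tested genes. Every one of the 7 had a control mean of at least 10, so none entered the test through its MCAO values alone.

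**Figure D1:**
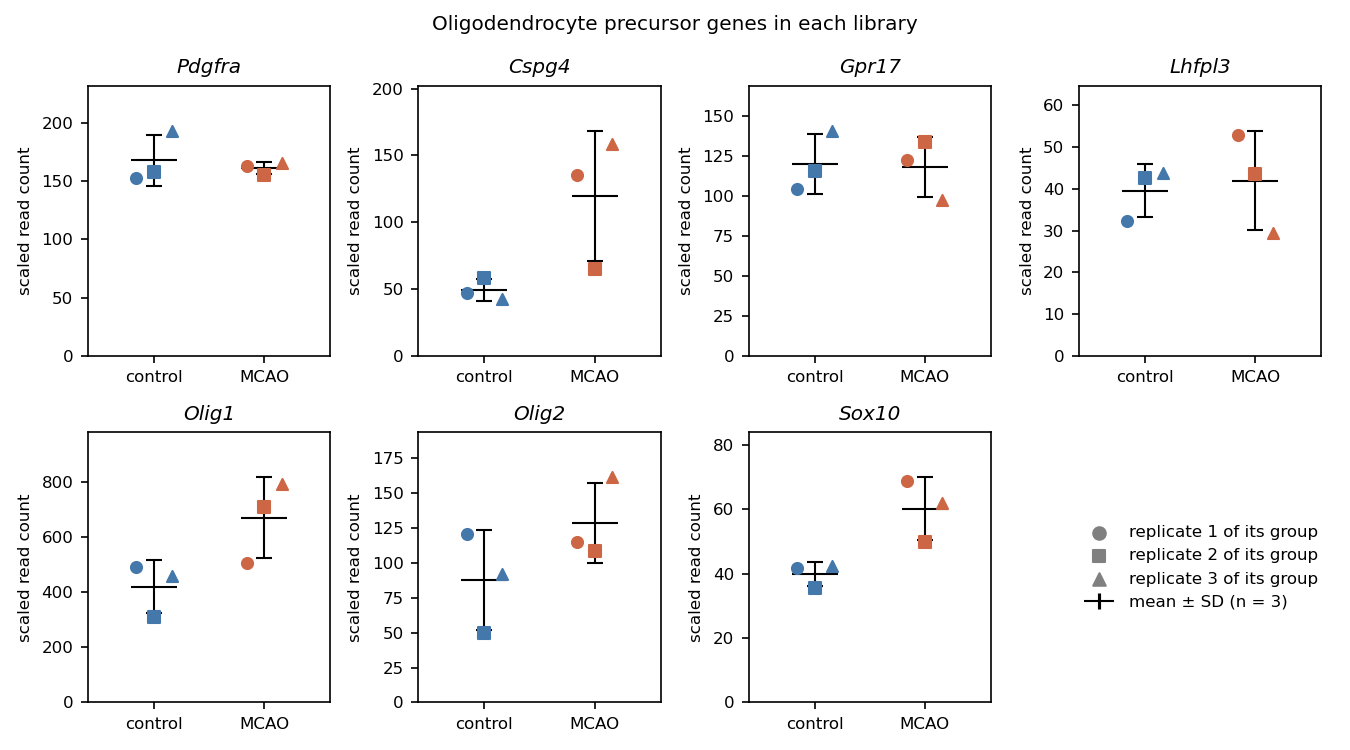
Scaled read count (y axis, from 0) of each of the 7 genes in the 3 control and 3 MCAO libraries; coloured points are libraries, with marker shape for the replicate number, and black bars are the mean ± SD. In Cspg4 the library MCAO 2 (65.3) lies close to control 2 (58.5) while the other MCAO libraries stand at 135 and 159; in Pdgfra all 6 libraries lie between 153 and 193.

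The upstream sequences of Cspg4 and Pdgfra are shown because, of these surface markers of the same cell, Cspg4 passed the test and Pdgfra lay near the median of all genes. Each is the 250 bases before the transcription start given by RefSeq (GRCm38.p6, the build of mm10), on the plus strand, with E-box matches (CANNTG, the kind of site that OLIG proteins and other basic helix-loop-helix factors bind) in capitals. Cspg4 is at chr9:56864854-56865103 and Pdgfra at chr5:75152001-75152250. The start used for Pdgfra lies inside the gene span given below, so its window does too, while the Cspg4 window ends where the gene span begins.
Cspg4: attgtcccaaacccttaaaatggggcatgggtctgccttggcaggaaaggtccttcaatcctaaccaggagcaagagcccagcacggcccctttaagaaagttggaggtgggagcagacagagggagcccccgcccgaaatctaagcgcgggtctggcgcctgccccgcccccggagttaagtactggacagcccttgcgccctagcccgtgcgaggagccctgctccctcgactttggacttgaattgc
Pdgfra: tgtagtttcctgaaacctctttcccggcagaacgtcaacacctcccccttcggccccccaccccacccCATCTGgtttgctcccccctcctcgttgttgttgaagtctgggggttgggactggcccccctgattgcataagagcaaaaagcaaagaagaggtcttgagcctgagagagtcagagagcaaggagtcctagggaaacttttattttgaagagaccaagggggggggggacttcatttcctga
The Pdgfra window held 1 E-box match, CATCTG, whose first base lay 182 bases before that start, and the Cspg4 window held 0. Of the 7 genes 4 had a window that could be printed here. Lhfpl3 held 2 matches, both CAGCTG, and Olig2 held 0. An E-box match was present in 66.2% of 32851 windows of the same length, and CAGCTG, which is a form of it, in 13% of them. Searched on both strands, the SOX core ACAAAG was in none of the 4 windows (16.5% of all windows), and its form ACAATG was in that of Olig2 alone (10.7% of all windows). These are matches of letters, not sites of binding, and their absence says only that the letters are not in this window.

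Cspg4 encodes the NG2 chondroitin sulfate proteoglycan on the surface of precursor cells and pericytes (chromosome 9, 56865104 to 56899870). It stood at 46.9, 58.5 and 42.3 scaled reads in controls 1, 2 and 3, and at 135, 65.3 and 159 in MCAO 1, 2 and 3. The groups did not overlap, yet MCAO 2 was close to the highest control, and the spread after MCAO (SD 48.5, mean 120) was far wider than in controls (SD 8.39, mean 49.2; n = 3 each). The value of MCAO 2 came from 21 reads, with a 95% exact Poisson interval of 40.4 to 99.8 scaled reads, and that of control 2 from 33 reads, with an interval of 40.3 to 82.2; these intervals, which cover counting error only, overlap. MCAO 1 and MCAO 3 rested on 230 and 238 reads, with intervals of 118 to 154 and 139 to 180, both above every control interval. The log2 change was 1.18 (SE 0.30, 95% interval 0.55 to 1.82, limma adjusted p = 0.0458), higher in 3 of 3 MCAO animals. The call rested on few animals: it was lost in 5 of the 6 fits that left out 1 library (adjusted p 0.112, 0.0554 and 0.118 when control 1, 2 or 3 was left out, and 0.122 and 0.188 when MCAO 1 or MCAO 3 was) and held without MCAO 2 (log2 change 1.57, adjusted p = 0.00281). It was lost with no intensity trend (0.183) and when only genes averaging at least 50 were tested (0.0511), and held with edgeR on the recovered reads (log2 change 1.41, adjusted p = 0.00375).

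Since pericytes also make Cspg4, their markers are given beside it. Of 13 listed pericyte and mural cell genes 6 were in the table and 4 were tested. None of the 4 was called by limma (1 at an unadjusted p under 0.05, 0 by edgeR), and the summed level was 389 to 507 scaled reads in controls and 329 to 427 after MCAO. Pdgfrb, the PDGF receptor of pericytes, was at 108 ± 26.9 and 70.0 ± 11.9 (SD, n = 3 each; log2 change -0.60, SE 0.23, adjusted p = 0.166), and Vtn, the vitronectin gene, at 149 ± 19.1 and 121 ± 33.0 (log2 change -0.32, adjusted p = 0.430). The other tested genes, named after their values were seen, had small positive log2 changes, 0.03 in Rgs5 (adjusted p = 0.967) and 0.14 in Notch3 (adjusted p = 0.765), so the list was split into 2 positive and 2 negative. The part of pericyte RNA in the Cspg4 value was not tested. Microglia markers were higher there: 11 of 15 rose and 0 fell (0 fell by edgeR), with a median log2 change of 1.91 over the tested genes. Of the 15, 5 had a control mean under 10 and were tested only because of their MCAO values, and 4 of these, Cd68 and Tyrobp among them, are in the 11. Their summed level was 688 to 954 in controls and 3403, 2507 and 3256 in MCAO 1, 2 and 3. Cd68, a lysosomal gene of phagocytes, rose by 3.86 (SE 0.47, limma adjusted p = 0.000358) and Tyrobp, whose product couples myeloid receptors to kinases, by 3.70 (SE 0.52, limma adjusted p = 0.00118). MCAO 2, the shallowest library, was the lowest MCAO library in Cspg4, where its value rested on 21 reads. Among the MCAO libraries it was also the lowest in the sums of fibroblast (166) and endothelial (59.1) markers. MCAO 2 was the highest in those of mature oligodendrocyte markers (18400), further transcription factors of the lineage (2554), the LHFPL family (883) and PDGF genes (299). The part of microglial RNA in the Cspg4 value was not tested.

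Pdgfra encodes PDGF receptor alpha, the receptor for the main growth signal of precursor cells (chromosome 5, 75151322 to 75198206). Its level was 153, 158 and 193 scaled reads in controls 1, 2 and 3, and 163, 156 and 166 in MCAO 1, 2 and 3. The MCAO values lay inside the control range. The log2 change was -0.05 (SE 0.16, adjusted p = 0.904), and its 95% interval of -0.40 to 0.30 spans folds of 0.757 to 1.23. Changes inside that range cannot be told from none with these animals. The interval is not a limit of detection, since a larger change can also miss the threshold. Olig1, with a log2 change of 0.67, did not pass (limma adjusted p = 0.0861). Fibroblast markers, which could carry Pdgfra from vessel walls or meninges, had negative log2 changes in all 7 tested genes of 8 listed, with a median of -0.48; limma called 0 of them (0 at an unadjusted p under 0.05, 0 by edgeR). Dcn, the decorin gene, was at 85.5 ± 31.9 and 51.4 ± 30.4 (SD, n = 3 each; adjusted p = 0.271), and Islr at 68.4 ± 30.3 and 56.0 ± 11.4 (adjusted p = 0.803). Their summed level overlapped between the groups, at 231 to 421 in controls and 166 to 322 after MCAO.

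Gpr17 encodes a G protein-coupled receptor that appears as precursors commit to become oligodendrocytes and falls silent as they mature (chromosome 18, 31942999 to 31949890). It was at 104, 115 and 140 scaled reads in controls 1, 2 and 3, and at 122, 134 and 97.2 in MCAO 1, 2 and 3. MCAO 3 was the lowest of the 6 libraries and control 3 the highest, and the groups overlapped across nearly their whole range. The log2 change was -0.03 (SE 0.20, 95% interval -0.44 to 0.39, adjusted p = 0.961).

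Lhfpl3 encodes a membrane protein that is used as a precursor marker in cell atlases (chromosome 5, 22746054 to 23275597). It was at 32.2, 42.6 and 43.8 scaled reads in controls 1, 2 and 3, and at 52.9, 43.5 and 29.3 in MCAO 1, 2 and 3. The highest and the lowest library were both MCAO animals. With 14 to 112 reads per library it was among the less deeply read of the 7 genes, and its log2 change of 0.06 (SE 0.30, adjusted p = 0.943) had a 95% interval of -0.58 to 0.69.

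Olig1 encodes a basic helix-loop-helix factor of the whole lineage (chromosome 16, 91269769 to 91271939). It was at 492, 312 and 459 scaled reads in controls 1, 2 and 3, and at 508, 709 and 795 in MCAO 1, 2 and 3. The groups did not overlap, but MCAO 1 was only just above control 1; the exact Poisson intervals of these 2 libraries, 475 to 543 and 469 to 515, overlap. The log2 change was 0.67 (SE 0.20, 95% interval 0.25 to 1.10) and did not pass (limma adjusted p = 0.0861). Without MCAO 1 it was called (0.86, adjusted p = 0.0441). It was also called when limma weighted the libraries (0.55, adjusted p = 0.0421), a setting added once the data had been seen, and in none of the other 15 alternatives.

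Olig2 lies beside Olig1 on the same chromosome (chromosome 16, 91225550 to 91228677) and encodes a factor with a role in the forming of precursors. It was at 121, 49.7 and 92.1 scaled reads in controls 1, 2 and 3, and at 115, 109 and 161 in MCAO 1, 2 and 3. Control 2 was the lowest library, control 1 lay above both MCAO 1 and MCAO 2, and the groups overlapped. The log2 change was 0.62 (SE 0.28, 95% interval 0.01 to 1.22, adjusted p = 0.250), and it fell to 0.26 without control 2, whose value came from 28 reads (95% exact Poisson interval 33.0 to 71.8).

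Sox10 encodes the factor that drives myelin genes and is kept from precursor to mature cell (chromosome 15, 79154913 to 79164490). It was at 41.7, 35.5 and 42.3 scaled reads in controls 1, 2 and 3, and at 68.8, 49.8 and 61.9 in MCAO 1, 2 and 3. The groups did not overlap. It had the tightest controls of the 7 genes, with a coefficient of variation of 9.47%. The log2 change of 0.58 (SE 0.25, 95% interval 0.04 to 1.11) did not pass (adjusted p = 0.225), and the lowest MCAO value rested on 16 reads.

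**Figure D2:**
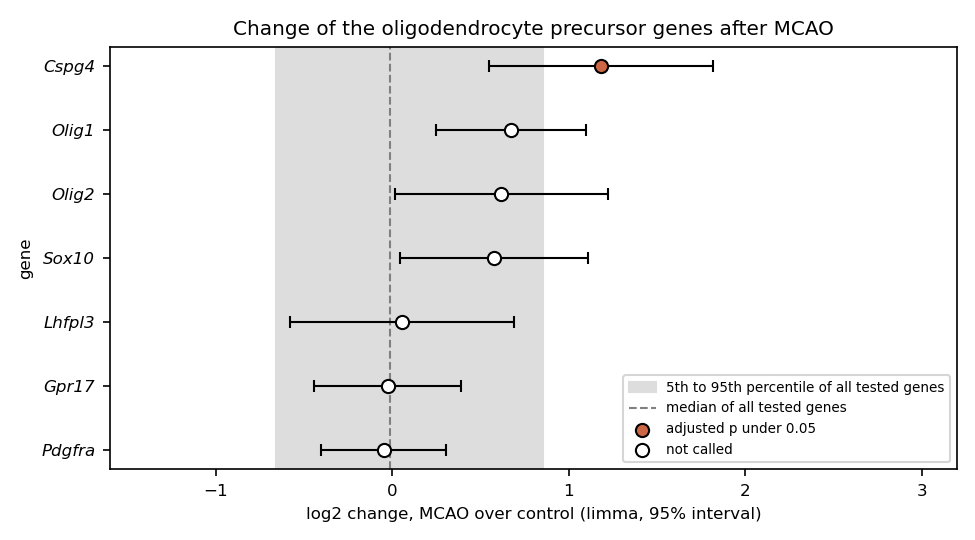
Log2 change of each gene (x axis, MCAO over control) with its 95% interval from limma; a filled point marks an adjusted p under 0.05, the grey band holds the 5th to 95th percentile of all tested genes and the dashed line is their median. Cspg4 (1.18) lies to the right of the band, Olig1, Olig2 and Sox10 lie inside its right part with intervals above 0, and Lhfpl3, Gpr17 and Pdgfra lie near the median.

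Ratios within a library do not depend on its scale factor. Transcript lengths were not at hand, so only the change of a ratio between libraries is read, not its level. The ratio of Cspg4 to Pdgfra, each plus 1 scaled read, was 0.311, 0.375 and 0.223 in controls 1, 2 and 3, and 0.831, 0.424 and 0.956 in MCAO 1, 2 and 3. The groups did not overlap, and the log2 ratio was higher by 1.23 after MCAO. The two-sided exact permutation p was 0.1, the smallest that 3 against 3 animals allow (0.4 adjusted by Benjamini-Hochberg over the 4 ratios compared). The ratio of Olig1 to Olig2 was 4.04, 6.18 and 4.94 in controls and 4.38, 6.46 and 4.91 after MCAO, a log2 difference of 0.06 (exact permutation p = 0.8, adjusted p = 0.8). Control 2 and MCAO 2 had the highest ratio of their groups. They were also the shallowest libraries of their groups, and their Olig2 values rested on 28 and 35 reads. Gpr17 to Pdgfra differed by 0.02 on the log2 scale (exact permutation p = 0.8) and Lhfpl3 to Pdgfra by 0.11 (exact permutation p = 0.7), with groups that overlapped in both; each had an adjusted p of 0.8.

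**Figure D3:**
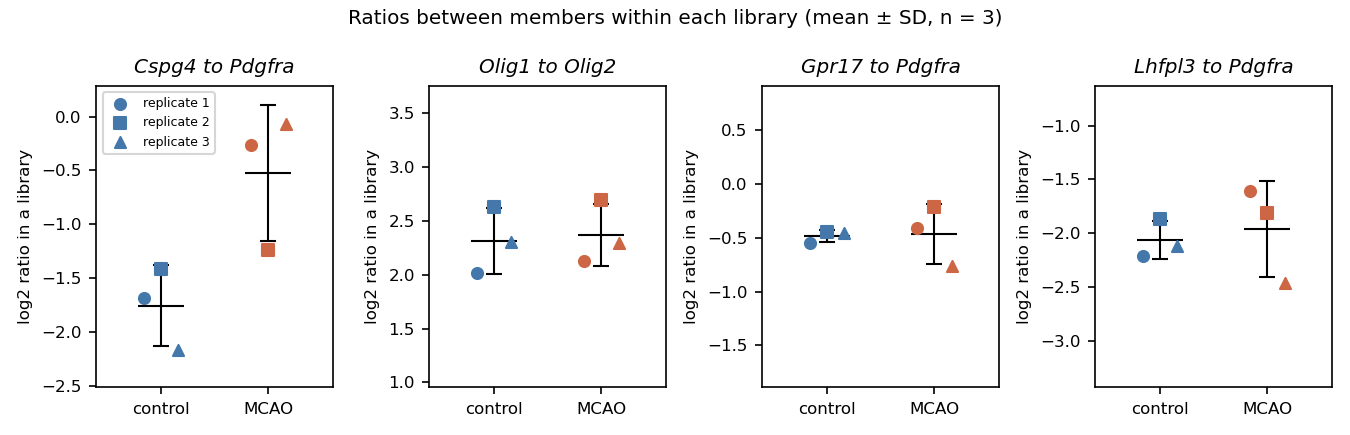
Log2 ratio between a pair of the genes in each library (y axes span the same range); points are libraries, marker shapes the replicate numbers, black bars the mean ± SD. Only in the panel of Cspg4 to Pdgfra do the 3 MCAO libraries lie above all 3 controls, with MCAO 2 (-1.24) nearest to them.

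No other marker of precursor cells passed the test beside Cspg4. Of 15 listed genes all were in the table and 14 were tested. Limma called 0 of them (4 at an unadjusted p under 0.05, 0 by edgeR), and the median log2 change was -0.07, with a range of -0.70 to 1.41, 6 positive and 8 negative. The summed level of the list was lower after MCAO without overlap, at 1879 to 2247 scaled reads in controls and 1425 to 1837 after MCAO. Ptprz1, given below, weighed most in these sums. The 4 genes at an unadjusted p under 0.05 went both ways: Ptprz1 and Megf11 (-0.45, adjusted p = 0.172) were lower after MCAO, and Rlbp1 (0.58, adjusted p = 0.192) and Shc4 (1.41, adjusted p = 0.225) higher. All but Ptprz1 are named here after their values were seen. Ptprz1, a receptor phosphatase gene shared with astrocytes, was the most abundant, at 970, 754 and 1038 scaled reads in controls 1, 2 and 3 and 737, 355 and 679 in MCAO 1, 2 and 3. All its MCAO values lay below the controls, and the log2 change of -0.70 (SE 0.23) did not pass (limma adjusted p = 0.122). Ptprz1 was called lower without the shallowest library of each group (-0.50, limma adjusted p = 0.0348). It was also called lower with library weights (-0.61, limma adjusted p = 0.029), and in none of the other 15 alternatives. Cacng4, an AMPA receptor regulator gene, was at 260 ± 20.2 and 215 ± 77.7 (SD, n = 3 each; adjusted p = 0.428). Of 10 genes of precursors that have begun to differentiate 9 were tested and limma called 0 (1 at an unadjusted p under 0.05, 0 by edgeR), with a median of -0.06. That gene was Bcas1, which marks newly forming myelinating cells, with 152 ± 33.4 scaled reads in controls and 230 ± 29.2 after MCAO, a log2 change of 0.61 (SE 0.19, adjusted p = 0.0957), and the kinase gene Fyn was at 423 ± 18.8 and 457 ± 30.9 (adjusted p = 0.708).

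Genes of mature, myelinating oligodendrocytes were higher after MCAO in the same libraries. Of 17 tested genes 9 rose and 0 fell (0 fell by edgeR), with a median log2 change of 0.76. Olig1, Olig2 and Sox10 had 0.67, 0.62 and 0.58. The changes of the 17 ran from -0.20 to 2.02, with 16 positive and 1 negative, and 8 were not called. Myrf, a transcription factor gene of this list named after its values were seen, had 0.07 (limma adjusted p = 0.882). Trf, the transferrin gene, rose from 517 ± 55.3 to 2118 ± 409 scaled reads (SD, n = 3 each; log2 change 2.02, SE 0.17, limma adjusted p = 1.01e-05). The summed level of the list was 9432 to 10636 in controls and 15537 to 18400 after MCAO. How much of the Olig1, Olig2 and Sox10 levels came from mature cells was not tested. The number that rose was 4 without control 1, without MCAO 1 or without MCAO 3, and 2 with no intensity trend.

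**Figure D4:**
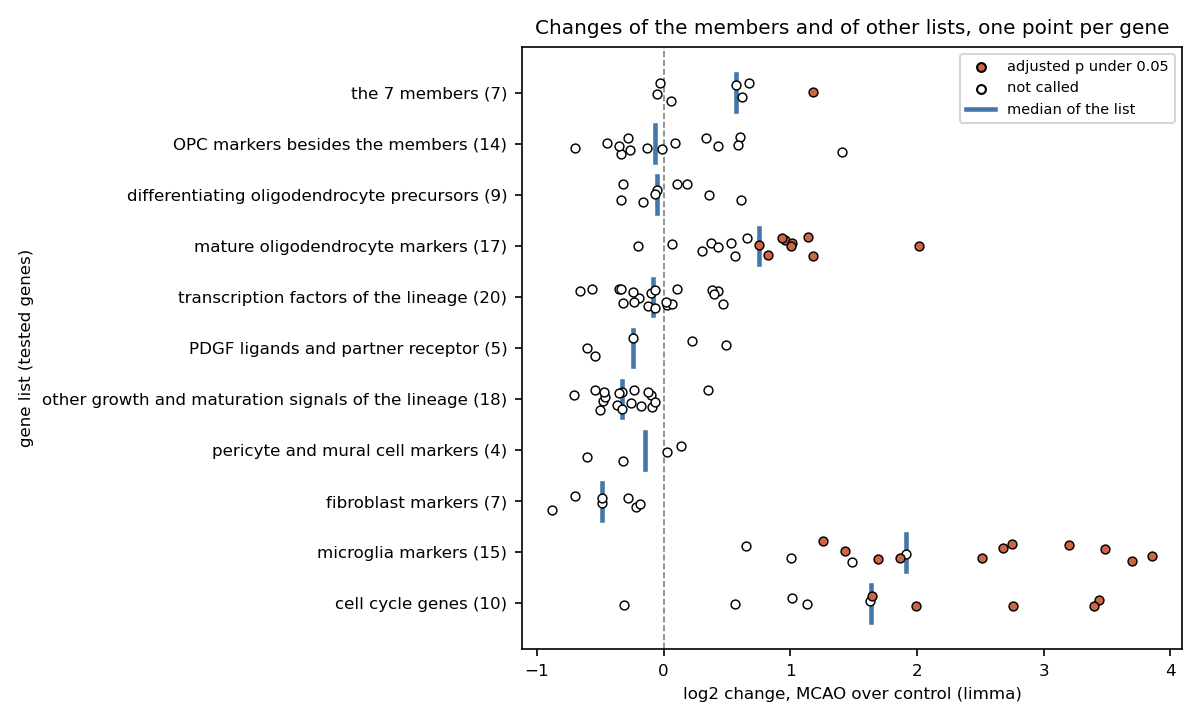
Log2 change of each tested gene (x axis, MCAO over control) in the 7 genes and in 10 other lists (y axis, number of tested genes in brackets); filled points have an adjusted p under 0.05, blue bars are list medians and the dashed line is 0. Filled points stand in the rows of the 7 genes, the mature oligodendrocyte, the microglia and the cell cycle genes; the other precursor markers scatter around 0 with a median of -0.07.

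The further transcription factors of the lineage, partners and inhibitors of OLIG proteins among them, had no called gene. All 20 were tested, limma called 0 (2 at an unadjusted p under 0.05, 0 by edgeR), and the median was -0.08. Tcf4, which encodes an E protein that pairs with basic helix-loop-helix factors, was at 663 ± 50.8 and 560 ± 45.3 scaled reads (SD, n = 3 each; adjusted p = 0.365). Id2, whose product holds such factors from DNA, was at 412 ± 193 and 354 ± 69.2 (adjusted p = 0.900), with control 2 low at 190. In the PDGF system 5 of 5 listed genes were tested and limma called 0 (2 at an unadjusted p under 0.05, 0 by edgeR), with a median of -0.24. Pdgfa, the ligand of PDGF receptor alpha on precursor cells, was at 73.1, 69.2 and 101 in controls 1, 2 and 3 and at 106, 140 and 97.2 in MCAO 1, 2 and 3. Control 3 lay above MCAO 3, so the groups overlapped, and the log2 change of 0.49 (SE 0.22) did not pass (adjusted p = 0.236).

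Of 22 other growth and maturation signals 18 were tested. Limma called 0 of them (3 at an unadjusted p under 0.05), edgeR called 1, Egfr, as lower, and 17 of the 18 had a negative log2 change, with a median of -0.32. Fgfr3, a growth factor receptor gene, was at 1135 ± 339 and 892 ± 283 scaled reads (SD, n = 3 each; adjusted p = 0.477), and Lingo1, which encodes a brake on precursor maturation, at 599 ± 21.8 and 565 ± 69.3 (adjusted p = 0.772). Of 8 relatives of GPR17 and genes of leukotriene synthesis 3 were tested, and limma called 0 (1 at an unadjusted p under 0.05, 0 by edgeR). The median was 1.00. Of the 3, 1 had a control mean under 10 and was tested only because of its MCAO values. P2ry12, a receptor gene of microglia, averaged 21.8 ± 8.74 in controls and 44.1 ± 13.2 after MCAO, a log2 change of 1.00 (SE 0.36, adjusted p = 0.150), and Lta4h, a leukotriene hydrolase gene, at 107 ± 32.0 and 99.6 ± 33.9 (adjusted p = 0.857). In the family of Lhfpl3, 3 of 5 listed genes were tested, and limma called 0 (1 at an unadjusted p under 0.05, 1 by edgeR, Lhfpl4; median 0.23). Lhfpl4, a partner of inhibitory synapse receptors in neurons, was at 726, 899 and 791 in controls 1, 2 and 3 and at 514, 616 and 486 in MCAO 1, 2 and 3. Its groups did not overlap, and its log2 change of -0.58 (SE 0.15) missed the threshold narrowly (limma adjusted p = 0.0513), while that of Lhfp was 0.23 (SE 0.24, limma adjusted p = 0.642).

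Cell cycle genes, which dividing precursors, microglia and astrocytes share, rose in 5 of the 10 tested of 15 listed, and 0 fell (0 fell by edgeR; median log2 change 1.64). Of the 10, 4 had a control mean under 10 and were tested only because of their MCAO values, 3 of them among the 5. Cdk1, the mitotic kinase gene, was at 2.01 scaled reads in control 1, at the floor of the table in controls 2 and 3, and at 27.7, 12.4 and 38.6 in MCAO 1, 2 and 3. Top2a, which untangles DNA for mitosis, had 14.2 scaled reads in control 2 against 1.15 in control 1 and the floor value in control 3; its MCAO levels were 34.7, 37.3 and 54.6. Both were called (limma adjusted p = 0.0134 and 0.0164), and their fitted changes depend on the floor. Without MCAO 3 the count of risen cell cycle genes was 1 and neither was called (adjusted p = 0.129 and 0.105); without MCAO 1 the count was 3 and Cdk1 was not called (adjusted p = 0.0816). Which cells were dividing was not tested.

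Over the 6 libraries the mean standardised profile of the 7 genes was most like Numbl, a relative of the Notch inhibitor Numb (Pearson r = 0.994), Mal, a myelin proteolipid gene (r = 0.974), and Slc44a1, a choline transporter gene (r = 0.972), among 6271 genes with a mean in the upper 50%. These are descriptions over 6 libraries that share their scale factors with the genes compared, and 20 genes reached an r of at least 0.95. Numbl was at 119 ± 16.1 and 144 ± 10.2 scaled reads (SD, n = 3 each; adjusted p = 0.402), Mal at 296 ± 46.3 and 396 ± 37.7 (adjusted p = 0.161) and Slc44a1 at 262 ± 50.7 and 324 ± 31.0 (adjusted p = 0.315). Neuron and endothelial markers, as lists with no lineage tie, had medians of -0.05 each, and limma called 0 of 10 and 0 of 4 tested genes (0 in each at an unadjusted p under 0.05, 0 by edgeR). Snap25 and Slc17a7 were the most abundant neuron markers (log2 changes 0.09, SE 0.17, and -0.08, SE 0.16), and Flt1 and Pecam1 the endothelial ones (-0.37, SE 0.36, and 0.16, SE 0.51). The endothelial genes were split into 2 positive and 2 negative. Cldn5, an endothelial gene named after its values were seen, had 1.11 (SE 0.55, limma adjusted p = 0.292), with all MCAO values above the controls. Its control mean was 6.19, so it was tested only because of its MCAO values.

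**Figure D5:**
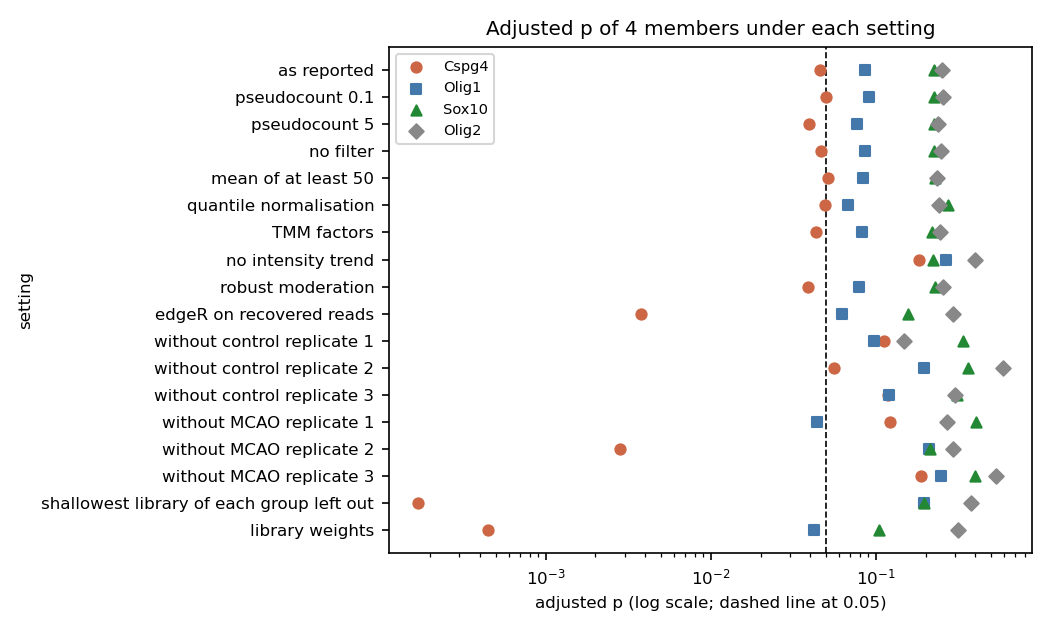
Adjusted p (x axis, log scale, dashed line at 0.05) of Cspg4, Olig1, Sox10 and Olig2 as reported and under each of 17 alternatives (y axis). Cspg4 lies left of the line in 10 alternatives, Olig1 in 2, and Sox10 and Olig2 in 0.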

How the data were processed

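The deposited table holds a normalised signal per gene and library. Per the submitters' processing notes, mm10, CASAVA 1.8, HISAT2, Partek 6.6, R 3.3.1 and DESeq2 were used by the authors, with no role or order given; how reads were counted, the strand setting and the scaling are not stated in the labels. The 2 technical replicates per animal are 1 column. Values above the floor of 1 are whole multiples of 1 step per library, and dividing by it left whole numbers (tolerance 0.1 read) for 99.946% of such values in control 1 and 100% in the others; as many as 3 reads are hidden at the floor in control 1. The limit of 3 reads equals 0.863 to 9.33 scaled reads, and all values of the 7 genes lie above it. PCR copies are not independent molecules.

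The test was limma 3.58.1 (R 4.3.3; linear model on log2(value + 1), two-sided, variances moderated by empirical Bayes along an intensity trend, Benjamini-Hochberg) over 12549 genes with a mean of at least 10. SE is moderated. This scale understates the change of low genes. Alternatives included edgeR 4.0.16 on recovered reads. The tests were checked on simulated data. The p-values rest on the spread between libraries, 1 per animal, with variances moderated over all tested genes. That spread includes counting error as well as differences between animals. The labels give no batch or pairing.

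Members and lists were chosen with earlier results of these data known. Named genes were the 7, in each list the 2 called genes with the largest change or else the 2 most abundant, the 3 genes most alike in profile, and Rpl22; 1 gene that this rule names is not reported here. Mouse genes were placed with RefSeq GRCm38.p6, in which all 7 symbols matched.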

Additional observations from a re-analysis of the deposited data

How the results depend on the processing

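Genes called numbered 387 as reported, 157 with no intensity trend, 1002 with library weights (chosen after seeing the data) and 148 to 306 with 1 library left out. Of the 7 genes 1 was called as reported, 2 with library weights, 0 with no intensity trend (3 at an unadjusted p under 0.05) and 0 over genes averaging at least 50 (4 of 6 at an unadjusted p under 0.05), and 0 to 1 with 1 library left out, the 1 being Cspg4 without MCAO 2 and Olig1 without MCAO 1. Cspg4 kept its direction under the 17 alternatives, at 0.93 to 1.70, as did Olig1 (0.42 to 0.86), Olig2 (0.26 to 0.89) and Sox10 (0.47 to 0.70). Without the shallowest library of each group Cspg4 was called (1.70, adjusted p = 0.000168).

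Log2 changes near 0 turned sign. With 1 library left out Pdgfra ran from -0.11 to 0.055, Gpr17 from -0.12 to 0.10, Lhfpl3 from -0.13 to 0.29, Id2 from -0.58 to 0.17, Lingo1 from -0.17 to 0.0054, Lta4h from -0.37 to 0.12, Lhfp from -0.089 to 0.47, Islr from -0.63 to 0.062, Pecam1 from -0.022 to 0.40 and Snap25 from -0.052 to 0.17. Pdgfra was 0.014, Lta4h 0.22, Lhfp -0.11 and Slc17a7 0.0056 with library weights. Lhfpl3 was -0.017 and Snap25 -0.0025 with quantile normalisation. Lta4h was 0.021 with edgeR. Without the shallowest library of each group Lta4h was 0.33, Lhfp -0.17 and the log2 ratio of Gpr17 to Pdgfra -0.082. With 1 library left out the log2 ratio of Olig1 to Olig2 ran from -0.10 to 0.21, of Gpr17 to Pdgfra from -0.10 to 0.17 and of Lhfpl3 to Pdgfra from -0.072 to 0.36. The causes were not tested. Lhfpl3 has no value over genes averaging at least 50. No paired analysis was possible because the labels give the animals no shared numbers. Depth limits MCAO 2 most, where the 7 genes had 14 to 228 reads.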
